A study of Mus musculus with 12 samples.

Results

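The response of *Dnmt3a*/*Flt3*-mutant (*D/F*) acute myeloid leukemia cells to CCS1477 was measured in 6 of the 12 RNA sequencing libraries of the study, 3 from cells given the drug and 3 from cells of the same 3 mice given its solvent DMSO. TPM, an abundance normalized to transcript length and to the library total, was averaged within both groups, and every gene whose mean reached 1 TPM in one or the other was kept, which left 15501 of the 15651 genes in the table. At the edge of that limit, *Gprc5b* was just inside with a mean of 1.003 TPM after CCS1477 and *Prkg1* just outside with 0.9972 TPM in DMSO. *D/F* mice carry *Dnmt3a* fl/fl, *Flt3* ITD/ITD and *Mx1Cre*, and the comparison genotype *T/F* carries *Tet2* fl/fl with the same *Flt3* and Cre alleles, so drug-treated and control cells of a genotype share every allele. *Mx1Cre* is an interferon-inducible Cre, and in *D/F* mice no inducer was given, so that blood cells lost 1 or both *Dnmt3a* alleles spontaneously. Splenocytes of moribund mice were enriched for c-Kit with CD117 microbeads, plated with SCF, IL6 and IL3, and exposed for 6 hours to 4 µM CCS1477 (2 µM in *T/F* cells) or DMSO. Each replicate was 1 mouse, named mouse 1, 2 and 3 here, and its cells were divided between both treatments.

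CCS1477 (inobrodib) occupies the bromodomains of p300 and CBP, a pair of closely related lysine acetyltransferases that are recruited to enhancers and promoters by DNA-binding factors. There they acetylate histones, H3K27 among them, and carry the signal of those factors to RNA polymerase II. Genes driven by strong enhancers, such as *Myc* and the genes that define a cell lineage, are known to depend on such coactivators. The comparison of drug with DMSO asks which genes of c-Kit+ *D/F* AML cells changed within hours of bromodomain inhibition.

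Promoters of the called genes differed in composition. The 4 promoters below, as RefSeq gives them on GRCm38.p6 from 250 bases before to 50 bases after the gene start, come from 2 groups of lower genes that lay far apart in CpG content, and were picked as the largest falls with a given motif in each group. *Tsr1* and *Wdr43*, which encode nucleolar factors of ribosome assembly, were picked for the E-box CACGTG, the core that MYC and related factors bind. *Prtn3* and *Mpo*, which encode neutrophil granule proteins, were picked for GAGGAAGT, the core bound by the myeloid factor PU.1. Capitals mark every match of either motif on either strand.
Tsr1, chr11:74897830-74898129, plus strand: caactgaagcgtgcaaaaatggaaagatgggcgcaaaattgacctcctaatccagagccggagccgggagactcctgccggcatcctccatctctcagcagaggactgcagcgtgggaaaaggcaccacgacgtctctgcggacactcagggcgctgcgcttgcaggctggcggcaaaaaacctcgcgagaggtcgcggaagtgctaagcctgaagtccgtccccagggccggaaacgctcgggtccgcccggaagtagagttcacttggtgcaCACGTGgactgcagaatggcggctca
Wdr43, chr17:71615965-71616264, plus strand: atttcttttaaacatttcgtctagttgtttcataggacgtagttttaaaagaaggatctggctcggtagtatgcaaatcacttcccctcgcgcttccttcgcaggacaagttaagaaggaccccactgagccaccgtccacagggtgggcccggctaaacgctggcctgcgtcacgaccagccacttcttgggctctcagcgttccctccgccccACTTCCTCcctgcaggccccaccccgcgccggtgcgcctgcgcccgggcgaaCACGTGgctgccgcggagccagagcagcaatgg
Prtn3, chr10:79879417-79879716, plus strand: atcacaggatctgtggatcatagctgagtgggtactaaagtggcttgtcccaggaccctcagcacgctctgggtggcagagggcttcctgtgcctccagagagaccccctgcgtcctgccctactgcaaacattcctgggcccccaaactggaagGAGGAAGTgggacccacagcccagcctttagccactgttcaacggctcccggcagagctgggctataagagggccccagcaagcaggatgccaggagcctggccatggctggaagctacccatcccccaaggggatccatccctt
Mpo, chr11:87793534-87793833, plus strand: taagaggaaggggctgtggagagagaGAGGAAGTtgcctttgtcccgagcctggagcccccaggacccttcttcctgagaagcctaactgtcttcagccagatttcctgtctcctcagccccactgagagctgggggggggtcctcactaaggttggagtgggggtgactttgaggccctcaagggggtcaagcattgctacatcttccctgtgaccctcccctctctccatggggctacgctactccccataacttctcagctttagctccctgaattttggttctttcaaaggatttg
The E-box began 24 bases after the gene start in *Tsr1* and 17 bases after it in *Wdr43*, and the PU.1 core began 95 bases before the start in *Prtn3* and 224 bases before it in *Mpo*. *Wdr43* also held the PU.1 core, on the opposite strand, from 35 bases before the start, so the motifs do not separate the groups. These starts are RefSeq's, and lay 9 bases (*Tsr1*), 320 bases (*Wdr43*), 5191 bases (*Prtn3*) and 203 bases (*Mpo*) from the gene starts of GENCODE vM21. *Tsr1* held 58.4, 65.6 and 82.1 TPM in DMSO-treated cells of mice 1, 2 and 3 and 12.9, 18.4 and 20.4 TPM after CCS1477, and *Prtn3* went from 2026, 517 and 1944 TPM to 941, 124 and 696 TPM. The groups did not overlap in *Tsr1*, whereas the *Prtn3* level of mouse 2 in DMSO lay below 2 of the CCS1477 values. The counts of these motifs over all promoters are given with the other sequence features further on.

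Mouse 2 differed from the other mice before treatment. Across genes, its DMSO library was correlated at 0.946 and 0.953 with those of mice 1 and 3, which were correlated with each other at 0.978, and the CCS1477 libraries showed the same order (0.948, 0.957 and 0.982). The summed TPM of 10 markers of Kit+ myeloid progenitors was 4297 in mouse 2 in DMSO against 10640 and 8323 in mice 1 and 3, and that of 10 maturing neutrophil markers was 2889 against 10070 and 6769. Dendritic cell markers (8 genes) ran the other way, at 1868 against 424.2 and 1227, as did 6 megakaryocyte markers, at 242.5 against 47.78 and 64.76. Most of the progenitor sum came from the granule genes *Mpo*, *Elane*, *Prtn3* and *Ctsg*, so it does not measure progenitor number. *Kit* (50.5, 149 and 60.9 TPM in mice 1, 2 and 3), *Cd34* (110, 447 and 138 TPM), *Flt3* and *Myb*, of the same list, were highest in mouse 2 in DMSO. *Spi1*, also on it, was lowest there (143, 129 and 146 TPM). After CCS1477 the progenitor sum was 4466, 975.1 and 3314 in mice 1, 2 and 3, the neutrophil sum 9810, 1753 and 6976, the dendritic cell sum 358.7, 638.8 and 1053 and the megakaryocyte sum 32.47, 85.69 and 41.24. The test used the change within each mouse. *Dnmt3a* itself held 29.3, 55.7 and 33.1 TPM in DMSO and 40.8, 49.6 and 43.4 TPM after CCS1477 in mice 1, 2 and 3, and its change of 0.23 ± 0.16 (log2 ± SE) did not pass the test (limma adjusted p = 0.307). A value for the whole gene does not show whether the floxed part was deleted.

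Markers of other spleen cells were present, and several of them were lower after CCS1477. The sum of 3 of 7 listed NK cell markers (*Nkg7*, *Gzmb*, *Klrb1c*) was 179.8, 119.8 and 131.5 TPM in DMSO and 28.43, 6.092 and 23.68 TPM after CCS1477, with all 3 genes called lower. Most of it was *Nkg7* (159, 101 and 110 TPM in DMSO), which is also counted with the primary granule genes below. Macrophage and monocyte markers (9 of 10 genes) summed to 1408, 554.7 and 756.6 TPM in DMSO and to 595.5, 172.5 and 332.9 TPM after the drug, and mast cell and basophil markers (6 of 8 genes) went from 140.5, 275.9 and 133.2 TPM to 69.74, 64.21 and 66.88 TPM. T cell markers (6 of 9 genes) summed to 29.64, 68.1 and 33.32 TPM in DMSO and 24.17, 32.4 and 19.93 TPM after CCS1477, lower in each mouse. B cell markers (5 of 9 genes) went from 36.09, 57.47 and 28.89 TPM to 47.41, 53.34 and 23.69 TPM, higher in mouse 1 and lower in mice 2 and 3. Of 4 B cell markers tested 3 had a negative and 1 a positive log2 change. *Cd79b* was the 1 called lower (10.4, 22.8 and 10.6 TPM to 4.34, 8.22 and 3.64 TPM). Erythroid markers (9 of 10 genes) summed to 253.8, 170.9 and 285 TPM in DMSO and 147, 73.53 and 146.5 TPM after CCS1477, with *Hba-a2* and *Slc4a1* under 1 TPM in every library. Most of this sum was *Tfrc* (242, 136 and 270 TPM in DMSO, 136, 48.0 and 134 TPM after CCS1477), which is also on the MYC target list used below. Of 5 erythroid markers tested, *Tfrc* was the 1 called lower. The sum of 3 of 7 listed stromal and endothelial markers went from 111.3, 162.7 and 96.44 TPM to 20.76, 28.44 and 23.9 TPM, nearly all of it *Pecam1*, which blood cells also express. Among the markers tested, 7 of 8 for macrophages and monocytes and 3 of 6 for mast cells and basophils were called lower. For stroma and endothelium it was 1 of 3, and for T cells none of 6. Over all genes tested 6.97% were called lower, by the limits given below. Markers outside these counts, such as *Cd3e* and *Ncr1*, were not analysed here. In bulk RNA, fewer cells of a type and less RNA per cell cannot be told apart, and the part of these cells in the results below was not tested.

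CCS1477 lowered more genes by over 2-fold than it raised, and the falls reached further. At an adjusted p under 0.05 and over 2-fold (limma on log2(TPM + 1) with the mouse as a block), 1081 genes (6.97% of those tested) were called lower and 656 (4.23%) higher, 11.2% together. Every called gene moved in the same direction in all 3 mice (69.5% of all genes tested did). Values of drug and DMSO libraries did not overlap in 957 of the lower and 592 of the higher genes (36.6% of all genes tested). The calls were made on these same within-mouse changes, so neither count is separate evidence of agreement between mice. A fall of over 4-fold was reached by 212 genes and a rise of that size by 30, and over 8-fold by 43 and 1. Genes called lower made up 8.6%, 7.75% and 8.49% of all TPM in DMSO-treated cells of mice 1, 2 and 3 and 3.24%, 2.2% and 3.32% after CCS1477, while genes called higher went from 1.51%, 2.12% and 1.41% to 4.12%, 6.55% and 4.17%. Without the size limit the balance turned, with 3312 genes (21.4%) higher and 2786 (18%) lower at an adjusted p under 0.05, and the median change over all genes was 0.06 on the log2 scale. Without mouse 2 the calls were 948 lower and 762 higher. Without mouse 3 no gene passed the adjusted threshold (lowest adjusted p = 0.0514 by limma), although 1911 genes changed over 2-fold at an unadjusted p under 0.05.

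**Figure D1:**
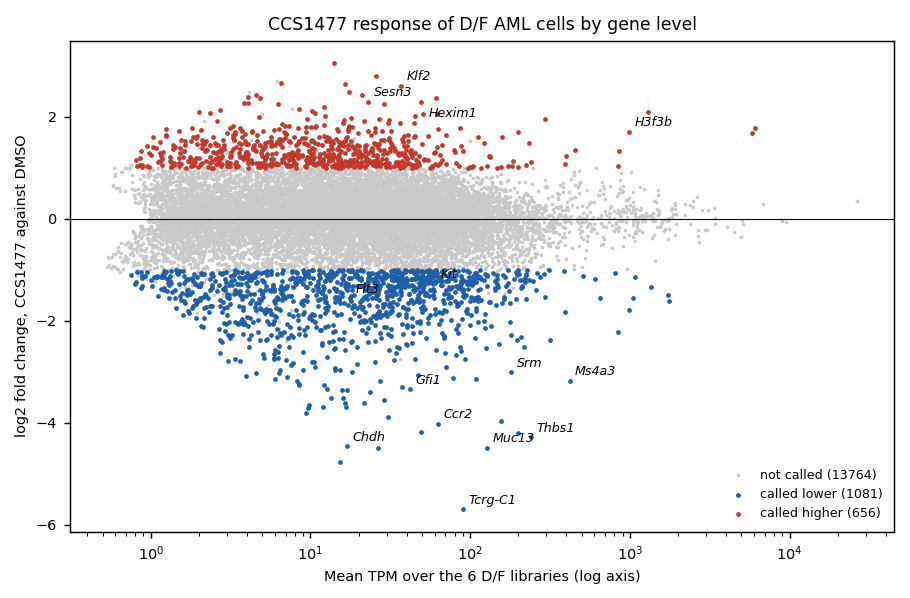
Each point is 1 of the 15501 genes; the x axis is the mean TPM over the 6 D/F libraries (log axis) and the y axis the log2 fold change of CCS1477 against DMSO on the log2(TPM + 1) scale. The 1081 genes called lower (blue) reach past a change of −5, while the 656 called higher (red) stay closer to 0.

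The skew toward lower genes was larger at higher expression. With the genes divided into 4 equal classes by mean level, in the lowest class (0.534 to 5.22 TPM) 5.37% were called higher and 6.32% lower, whereas in the highest class (from 49.8 TPM up) 1.57% were called higher and 6.71% lower. A few abundant transcripts nevertheless rose. *Ftl1*, the light chain of the iron store ferritin and a gene with many processed copies that can share its reads, went from 2112, 3291 and 2343 TPM to 5538, 15102 and 6504 TPM and was picked after its values were seen. Among abundant lower genes were *Mpo*, *Prtn3* and *Elane*, described with the granule genes.

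Effect sizes differed by mouse. Falls over 2-fold numbered 1129, 1686 and 1096 genes in mice 1, 2 and 3 and rises 845, 925 and 1025, and mouse 2 gave the largest fall of the 3 in 698 of the 1081 genes called lower. Across genes, the log2 changes of mice 1 and 2, 1 and 3, and 2 and 3 were correlated at 0.718, 0.796 and 0.77 (Pearson's r over genes, which are not independent replicates and share the filter and the scale). Over 2-fold in each mouse separately were 687 of the lower and 350 of the higher genes, which were selected on these same changes. Of all genes tested 6.7% moved over 2-fold the same way in all 3 mice.

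The largest falls with a symbol and at least 5 TPM joined growth control, chemotaxis and antigen receptor genes. *Myc*, the transcription factor that drives growth and ribosome production, held 300.3, 468 and 367 TPM in DMSO and 20.7, 17.8 and 19.0 TPM after CCS1477 in mice 1, 2 and 3. The treated values were close to each other although the controls differed, and the change was −4.21 ± 0.19 (adjusted p = 0.00429, limma). *Thbs1*, which encodes the secreted matrix glycoprotein thrombospondin-1, went from 879.8, 228 and 265 TPM to 48.5, 11.2 and 11.0 TPM (−4.29 ± 0.10), the mouse with the highest control level also keeping the highest treated level. *Ccr2*, a chemokine receptor of monocytic cells, went from 142, 99.4 and 114 TPM to 8.60, 4.10 and 6.86 TPM. *Muc13*, a membrane mucin, went from 199.7, 342 and 195 TPM to 11.9, 5.23 and 13.8 TPM, mouse 2 having the highest control and the lowest treated value. *Chdh*, the mitochondrial choline dehydrogenase, fell from 36.3, 33.7 and 30.2 TPM to 0.829, 0.344 and 0.515 TPM (−4.47 ± 0.11).

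The other large falls were just as uniform in direction. *Tcrg-C1*, a constant segment of the T cell receptor gamma chain, had the largest fitted fall (−5.70 ± 0.40), from 219, 109 and 204 TPM to 3.80, 0 and 6.31 TPM, and is listed at 0 in mouse 2, so that the size of its fall depends on the pseudocount. Among 6 T cell markers, whose summed level was lower in each mouse, limma called none (3 were lower at an unadjusted p under 0.05), and their part in the fall of *Tcrg-C1* was not tested. The genes *Tcrg-C1* and *Tcrg-C2* (27.2, 20.4 and 9.54 TPM to 0.744, 0.206 and 0.532 TPM) are alike in part, so reads may be divided between them. *Bex6* went from 20.3, 41.9 and 29.3 TPM to values listed at 0, 0 and 0.330. *Gm11505* (−4.49) is annotated antisense within the *Mpo* locus on chromosome 11, and its reads can be told from those of *Mpo* only where counting used the strand. *Lair1*, an inhibitory collagen receptor of leukocytes, fell from 80.0, 46.9 and 47.1 TPM to 3.58, 2.04 and 3.13 TPM and *Dio2*, the deiodinase that activates thyroid hormone, from 20.3, 17.0 and 19.1 TPM to 0.684, 0.384 and 0.487 TPM. *Angpt1*, a ligand of the Tie2 receptor, was at 12.7, 96.3 and 16.0 TPM in DMSO, highest in mouse 2, and at 0.704, 3.23 and 0.716 TPM after CCS1477. *Atp8b4* (−3.97), a phospholipid flippase, and *Klrb1f* (−3.82), a lectin-like receptor, were among them too.

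**Figure D2:**
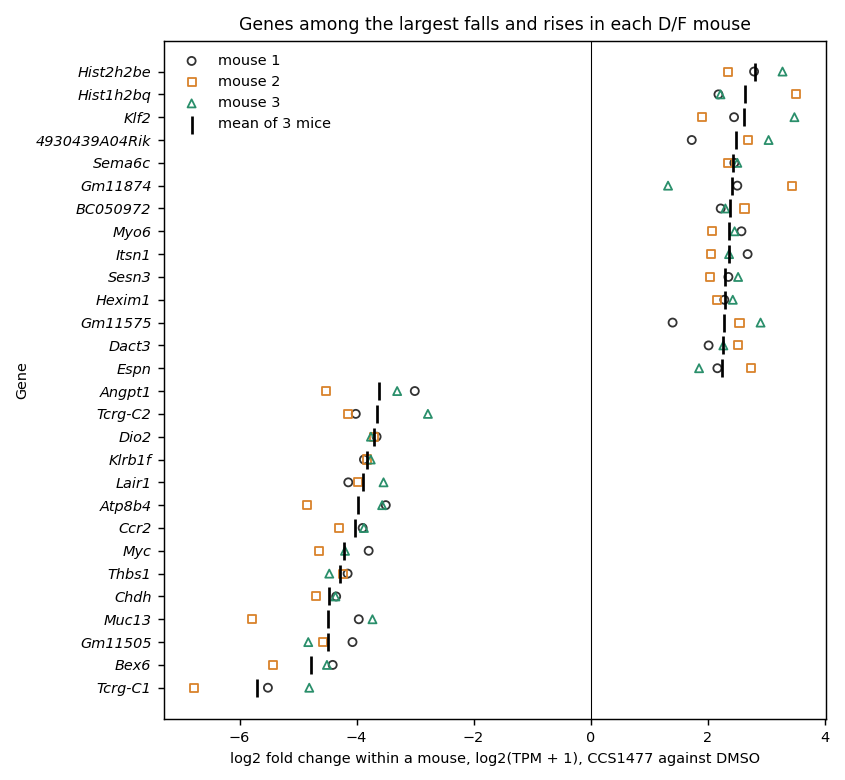
Genes among the 15 largest falls and 15 largest rises of called genes; the x axis is the log2 fold change of CCS1477 against DMSO on the log2(TPM + 1) scale, points are the 3 mice and the bar is the fitted value. All 3 mice lie on the same side of 0 for each gene, and the falls (to −5.70) are larger than the rises (to 2.81).

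The largest rises were smaller and began from low levels. *Itsn1*, a scaffold of endocytosis, was among the most even, at 15.3, 24.1 and 18.9 TPM in DMSO and 104, 103 and 102 TPM after CCS1477 (2.37 ± 0.15). *Hexim1*, an RNA-bound inhibitor of the elongation kinase P-TEFb, went from 16.3, 18.5 and 13.7 TPM to 83.2, 86.0 and 78.3 TPM (2.29 ± 0.10). Treated values of *Itsn1* and *Hexim1* were nearly the same in the 3 mice. *Klf2*, a quiescence-linked zinc finger factor, rose from 20.7, 5.17 and 3.71 TPM to 118, 22.1 and 51.6 TPM (2.61 ± 0.33), with mouse 1 highest under both treatments. *Sesn3*, a sestrin that restrains mTORC1, went from 5.41, 11.6 and 5.10 TPM to 31.7, 50.7 and 33.9 TPM. *Sema6c*, *Myo6*, *Dact3* and *Espn* started at 2.23 TPM or less in every DMSO library and were at 5.79 TPM or more in every CCS1477 library. Also among the largest rises were the histone genes *Hist2h2be*, described below, and *Hist1h2bq* (7.56, 1.83 and 2.85 TPM to 37.9, 31.3 and 16.9 TPM), which is outside the histone list, the antisense genes *4930439A04Rik* (2.49) and *BC050972* (2.38), and the processed pseudogenes *Gm11874* (2.42) and *Gm11575* (2.28), whose reads may come from related copies.

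Both drug targets rose at the RNA level, and few genes of other acetyltransferases, BET proteins and P-TEFb were called. *Ep300*, which encodes p300, held 61.2, 61.8 and 53.5 TPM in DMSO and 97.6, 94.4 and 95.2 TPM after CCS1477, and *Crebbp*, which encodes CBP, 46.9, 61.6 and 52.7 TPM and 78.2, 112 and 86.2 TPM. The treated libraries lay above all DMSO libraries in both genes, with changes of 0.70 ± 0.09 and 0.76 ± 0.09 (adjusted p = 0.0109 and 0.00864, limma), short of 2-fold. Of 15 other lysine acetyltransferases, 7 rose and 3 fell at an adjusted p under 0.05 (21.4% and 18% of all genes), and only *Kat2a*, which encodes GCN5, was called (62.5, 63.5 and 73.8 TPM to 24.8, 20.0 and 30.8 TPM, −1.38 ± 0.12). Among 14 genes of BET proteins and P-TEFb 6 rose and 1 fell at an adjusted p under 0.05. *Hexim1* and *Brd2*, a BET bromodomain reader, were called higher (4.23% of all genes were), *Brd2* going from 279, 248 and 237 TPM to 665, 545 and 763 TPM. The median log2 change was 0.35 for the other acetyltransferases and 0.25 for the BET and P-TEFb genes, beside 0.06 over all genes. The kinase gene *Cdk9* did not pass the test (95% interval of the log2 change −0.12 to 0.35).

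Most histone genes rose. Of 33 histone genes tested, 22 rose and 1 fell at an adjusted p under 0.05 (21.4% and 18% of all genes), with a median of 0.48 beside 0.06 over all genes. *H3f3b*, which encodes the replication-independent histone H3.3, went from 512, 381 and 502 TPM to 1648, 1248 and 1666 TPM (1.71 ± 0.08), and its partner *H3f3a* from 618, 742 and 562 TPM to 1088, 1245 and 927 TPM (0.76). *Hist2h2be*, an H2B gene with a polyadenylated transcript, went from 7.99, 6.27 and 3.25 TPM to 61.3, 36.1 and 40.3 TPM. *Hist3h2a* (1.61), *Hist3h2ba* (1.52) and *H1fx* (1.46) were also called higher, and *H2afy*, the macroH2A gene, was called lower (916, 1351 and 1011 TPM to 514, 478 and 561 TPM), though not without mouse 1 or without mouse 2. Histone genes of a type are nearly identical in sequence, and most lack poly(A) tails, while the sample records name both ribosome depletion and an mRNA kit, so single members are uncertain. Of 28 Polycomb and DNA methylation genes 2 were called higher and 1 lower, and of 17 histone deacetylases 1 higher and 2 lower, numbers this small being near the shares of all genes called (4.23% higher and 6.97% lower). The called genes were the Polycomb readers *Cbx2* (1.52) and *Cbx8* (1.29), *Dnmt3l*, the catalytically inactive partner of *Dnmt3a* (11.2, 7.70 and 9.74 TPM to 1.10, 0.0456 and 0.753 TPM), *Hdac6* (1.40), *Hdac9* (−1.51) and *Sirt3* (−1.31).

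MYC and the genes it is known to activate were lower nearly throughout. *Mycn*, a MYC paralog, fell from 20.2, 46.3 and 24.3 TPM to 5.72, 10.5 and 6.14 TPM (−1.84 ± 0.11), and *Max*, the partner of both, from 108, 91.8 and 115 TPM to 57.1, 56.5 and 63.2 TPM (−0.82 ± 0.09), short of 2-fold. Of 12 genes of the MYC network 5 fell and 3 rose at an adjusted p under 0.05 (18% and 21.4% of all genes), with a median of −0.21. The 3 that rose were the MAX-binding repressors *Mxd3* (0.91), *Mxd4* (0.87) and *Mxi1* (0.51). *Mxd1*, *Mnt* and *Mga*, of the same list, did not rise at that limit. Of 50 MYC target genes 49 had a negative log2 change (45.2% of all genes), with a median of −1.03. At an adjusted p under 0.05 42 fell and 1 rose (18% and 21.4% of all genes), and 27 were called lower (6.97%). *Srm*, which makes spermidine, held 325, 188 and 439 TPM in DMSO and 40.6, 15.5 and 74.3 TPM after CCS1477 (−3.01 ± 0.21), mouse 2 being lowest under both treatments. *Bcat1*, a branched-chain amino acid transaminase, went from 33.1, 5.63 and 38.7 TPM to 3.89, 0.437 and 8.65 TPM, where the DMSO value of mouse 2 lay below a treated value of mouse 3. Not every textbook target moved: *Npm1* (−0.43 to 0.02), *Odc1* (−0.59 to 0.05) and *Ldha* (−1.47 to 0.42, 95% intervals of the log2 change) did not pass the test.

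Ribosome assembly and the ribosome itself differed in their counts. Of 97 nucleolar genes of ribosome biogenesis 80 fell and none rose at an adjusted p under 0.05 by limma (86 and 1 at an unadjusted p under 0.05), 45 were called lower, and the median was −0.94, in mice 1, 2 and 3 −0.88, −0.93 and −0.92. *Gnl3*, or nucleostemin, went from 126, 138 and 160.2 TPM to 16.9, 21.5 and 25.9 TPM (−2.68 ± 0.10), *Ppan*, a large-subunit assembly factor, from 133, 156 and 152 TPM to 22.0, 24.4 and 27.8 TPM, and *Dkc1*, the pseudouridine synthase of box H/ACA particles, from 266, 302 and 335 TPM to 58.1, 55.3 and 69.8 TPM. In each of these genes every treated value lay below every control value. Many nucleolar genes, *Gnl3* and *Ppan* among them, are also on the MYC target list, so the counts of both lists are not separate results. *Polr1b*, a subunit of RNA polymerase I, fell from 70.9, 104 and 92.2 TPM to 18.6, 27.6 and 24.0 TPM. In contrast, of 75 cytosolic ribosomal protein genes 3 rose and 7 fell at an adjusted p under 0.05 (21.4% and 18% of all genes), none was called, and the median was 0.00. *Rps3*, for example, held 568, 728 and 585 TPM in DMSO and 596, 728 and 581 TPM after CCS1477. Of 7 host genes of small nucleolar RNAs 4 fell at an adjusted p under 0.05, *Snhg15* (−1.83) and *Snhg17* (−1.60) over 2-fold.

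Genes that supply nucleotides followed ribosome assembly at a lower size. Of 31 members 17 fell and 1 rose at an adjusted p under 0.05 (18% and 21.4% of all genes), with a median of −0.63. Some members, such as *Gart*, are also on the MYC target list. *Shmt1*, a one-carbon enzyme, went from 99.6, 121 and 120.1 TPM to 34.0, 39.5 and 41.9 TPM, and the purine genes *Gart* (−1.30 ± 0.12) and *Atic* (−1.24 ± 0.13) and the CTP synthase *Ctps* (−1.06 ± 0.12) were also called lower. *Ctps* was no longer called without mouse 1 or without mouse 2. Of 11 genes of polyamine metabolism 5 fell and 4 rose at an adjusted p under 0.05. Besides *Srm*, the synthesis genes *Sms* (−0.74), *Amd1* (−0.74) and *Amd2* (−0.69) and the oxidase *Paox* (−0.86) fell, each short of 2-fold, and the antizyme inhibitor *Azin1* rose (0.72). Called higher were 3 genes that break down or limit polyamines: *Sat1* went from 64.8, 72.6 and 52.7 TPM to 179, 211 and 151 TPM, *Oaz2* from 37.1, 43.3 and 32.8 TPM to 88.1, 112 and 74.8 TPM and *Smox* from 9.68, 33.0 and 16.1 TPM to 29.8, 68.7 and 25.4 TPM, the last not called without mouse 1 or without mouse 2. Of 22 glycolytic genes 6 fell and 2 rose at an adjusted p under 0.05 (18% and 21.4% of all genes), the largest fall being that of the myeloid hexokinase *Hk3* (178, 154 and 113 TPM to 42.4, 11.1 and 27.1 TPM). Of 23 cholesterol synthesis genes 21 had a positive log2 change (54.8% of all genes), 4 rose and none fell at an adjusted p under 0.05 by limma (9 and 0 at an unadjusted p under 0.05), and none was called. Of 25 genes of the unfolded protein and integrated stress response 1 was called lower (*Xbp1*, −1.19) and 1 higher (*Chac1*, 1.16), no larger a share than over all genes (6.97% and 4.23%).

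**Figure D3:**
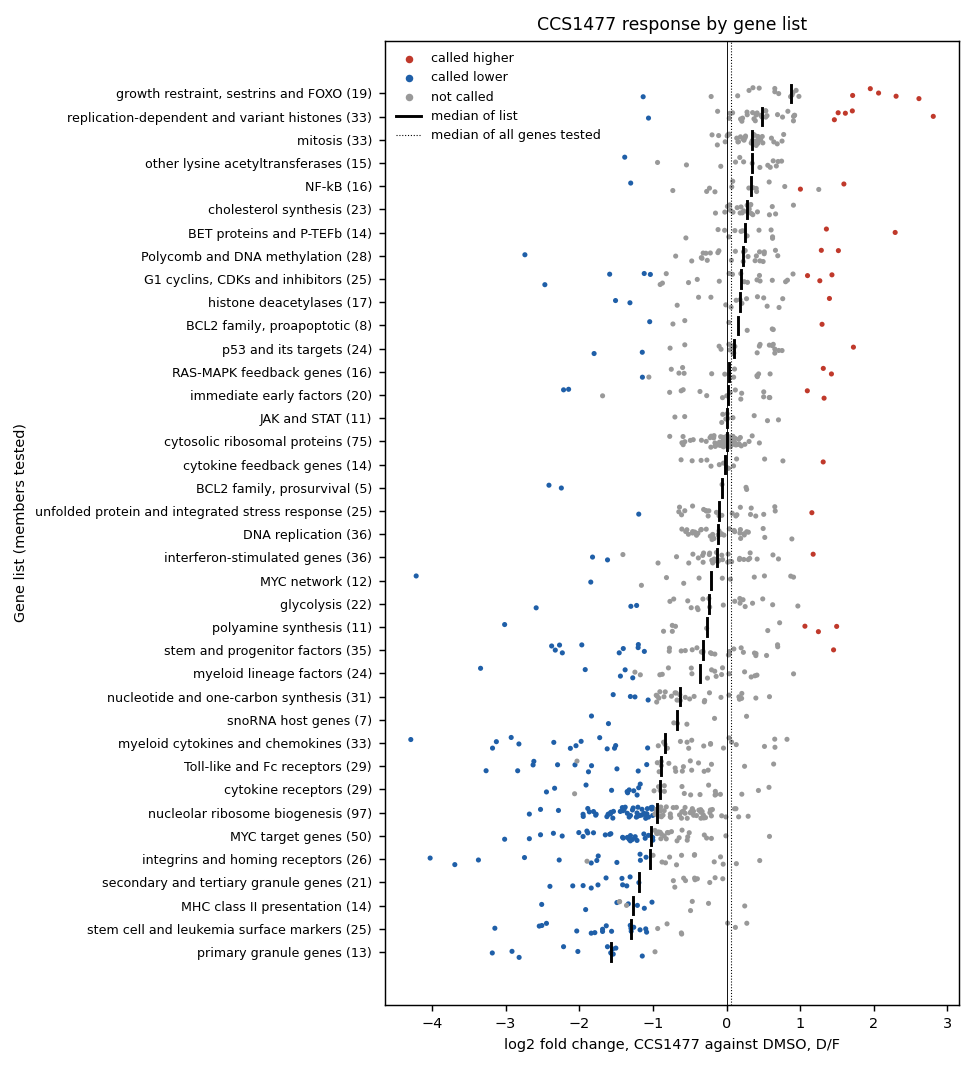
Each row is a gene list; each point is a tested member at its log2 fold change of CCS1477 against DMSO on the log2(TPM + 1) scale and the bar is the list's median. Medians run from −1.57 for the primary granule genes to 0.87 for the growth restraint genes, with cytosolic ribosomal proteins at 0.00.

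Growth restraint genes, sestrins and FOXO targets among them, mostly rose. Of 19 members 13 rose and 1 fell at an adjusted p under 0.05 (21.4% and 18% of all genes), and the median was 0.87, in mice 1, 2 and 3 0.81, 0.85 and 0.82. Besides *Klf2* and *Sesn3*, *Ccng2*, a cyclin induced in resting cells, rose from 32.9, 21.5 and 16.3 TPM to 125, 96.0 and 78.1 TPM (2.06 ± 0.10), *Txnip*, which limits glucose uptake, from 131, 169 and 57.8 TPM to 594, 611 and 209.8 TPM, and *Foxo1* from 3.11, 5.99 and 2.82 TPM to 13.5, 17.5 and 13.5 TPM. *Pik3ip1*, a PI3K inhibitor, was the 1 member called lower, at 31.9, 61.7 and 31.5 TPM and 15.7, 43.7 and 7.55 TPM, and it was no longer called without mouse 1 or after rescaling to the median gene. *Cdkn1b*, which encodes the cell cycle inhibitor p27, rose by 0.90 ± 0.10, from 39.2, 33.4 and 28.8 TPM to 72.7, 58.6 and 60.3 TPM.

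Cell cycle genes differed by phase in their counts. Of 25 genes of G1 control 4 were called lower and 3 higher: *Cdk6*, the kinase that drives myeloid progenitors through G1, fell from 236, 295 and 244 TPM to 40.4, 45.9 and 51.4 TPM (−2.47 ± 0.12), and its cyclin partner *Ccnd2* from 187, 164 and 176 TPM to 65.7, 41.9 and 69.9 TPM. *Ccnd1* (−1.12) and the phosphatase *Cdc25a* (−1.03) were also lower, while the CDK inhibitors *Cdkn2c* (9.12, 5.94 and 9.28 TPM to 29.0, 14.0 and 30.4 TPM) and *Cdkn1c* (1.10) and the factor *E2f2* (1.27) were higher. Without mouse 2, 2 of these were called lower. Over all genes tested, 6.97% were called lower and 4.23% higher in the reported fit. Of 36 DNA replication genes 1 rose and 3 fell at an adjusted p under 0.05, where 21.4% and 18% of all genes did, and none was called. Of 33 mitosis genes 15 rose and none fell at an adjusted p under 0.05 by limma (18 and 0 unadjusted), with a median of 0.35 and none over 2-fold. *Mki67*, the Ki-67 gene, went from 246, 192 and 219.9 TPM to 394, 308 and 412 TPM (0.75 ± 0.10), each treated value above every control, whereas *Plk1* (−0.07 to 0.39, 95% interval of the log2 change) did not pass the test.

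Some survival genes moved and others did not pass the test. *Bcl2*, the target of venetoclax, was lower in each mouse (−2.41 ± 0.16), from 28.9, 58.3 and 31.4 TPM to 5.12, 7.47 and 6.35 TPM. Its highest treated value lay far below its lowest control. *Bcl2a1b* went from 18.9, 68.3 and 25.8 TPM to 2.88, 9.16 and 7.83 TPM, a gene with near-identical copies that were not analysed here. *Mcl1* (−0.03 to 0.56) and *Bcl2l1* (−0.33 to 0.20, 95% intervals of the log2 change), 2 other prosurvival genes, did not pass the test. On the proapoptotic side (8 genes), *Bcl2l11*, which encodes BIM, rose from 22.1, 45.9 and 35.8 TPM to 66.6, 107 and 79.3 TPM (1.30 ± 0.12), and *Bid* fell from 77.2, 72.6 and 55.5 TPM to 34.5, 27.8 and 35.4 TPM (−1.04 ± 0.17), a call lost without mouse 1 or without mouse 2. Of 24 genes of p53 and its targets 9 rose and 3 fell at an adjusted p under 0.05 (21.4% and 18% of all genes). *Trp53inp1* was called higher (1.72), the nuclease *Aen* (−1.80) and the kinase *Plk3* (−1.14) lower, and *Trp53* itself fell from 145, 188 and 186 TPM to 86.1, 103 and 115 TPM (−0.77 ± 0.09).

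**Figure D4:**
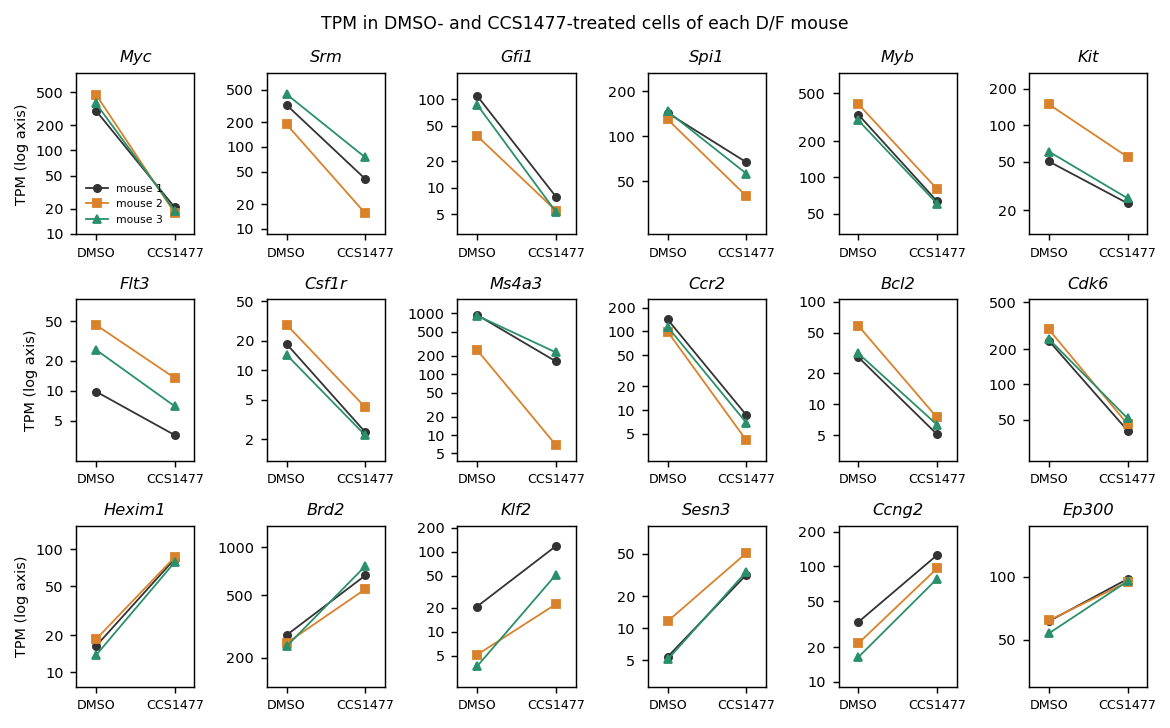
TPM (log axes, a separate range for each gene) in DMSO- and CCS1477-treated cells; each line joins the libraries of 1 mouse. All 3 lines run down in the first 12 panels, from *Myc* to *Cdk6*, and up in the last 6, from *Hexim1* to *Ep300*.

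Transcription factors of the stem and progenitor state were divided. Of 35 factors 11 fell and 4 rose at an adjusted p under 0.05, 10 of them called lower and *Pbx3* called higher (3.52, 5.35 and 2.88 TPM to 13.4, 9.67 and 13.8 TPM), though not without mouse 1. Over all genes 18% fell and 21.4% rose, and 6.97% were called lower and 4.23% higher. *Myb*, which keeps progenitors cycling, went from 332, 406 and 298 TPM to 63.5, 80.2 and 60.7 TPM (−2.32 ± 0.08), *Lmo2*, a bridging protein of blood stem cell complexes, from 218, 482 and 298 TPM to 49.0, 71.3 and 61.8 TPM (−2.37 ± 0.15), *Erg* from 38.4, 76.4 and 40.2 TPM to 9.01, 11.2 and 8.25 TPM and *Runx1* from 64.7, 115 and 65.3 TPM to 18.4, 13.4 and 16.5 TPM. Control levels of *Lmo2* and *Erg* were highest in mouse 2, and treated levels were close in all 3 mice. *Etv6* (−1.96), *Fli1* (−1.40), *Gata1* (−1.46), *Ikzf1* (−1.20), *Ikzf2* (−1.20) and *Hmga2* (−1.12) were the other called genes. *Hoxa9* (−0.25 to 0.44), *Meis1* (−0.39 to 0.79) and *Gata2* (−0.94 to 0.14, 95% intervals of the log2 change) did not pass the test. The list's median was −0.03, −0.80 and −0.26 in mice 1, 2 and 3, so the size of its shift differed between mice.

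Of 24 myeloid lineage factors 9 fell and 3 rose at an adjusted p under 0.05 (18% and 21.4% of all genes), and 5 were called lower (6.97% of all genes). *Gfi1*, a repressor needed for granulocytes, fell most, from 109, 38.6 and 86.9 TPM to 7.95, 5.52 and 5.36 TPM (−3.34 ± 0.27). *Spi1*, which encodes PU.1, held 143, 129 and 146 TPM in DMSO and 66.8, 39.7 and 56.1 TPM after CCS1477 (−1.38 ± 0.14), with control values that were close in all 3 mice. *Cebpe*, needed for late granulocytes, went from 96.1, 31.8 and 57.4 TPM to 30.7, 5.98 and 14.6 TPM, *Cebpa* changed by −1.27 ± 0.09 and *Zeb2* by −1.44 ± 0.15. *Irf8*, the monocyte and dendritic cell factor, had 36.1, 82.1 and 79.3 TPM in DMSO and 29.5, 18.8 and 30.0 TPM after CCS1477 and did not pass the test (adjusted p = 0.0595, limma), its change ranging from small in mouse 1 to large in mouse 2.

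Many cytokine receptors and surface markers were lower. Of 29 cytokine receptors 18 fell and 2 rose at an adjusted p under 0.05 (18% and 21.4% of all genes), and 11 were called lower (6.97% of all genes), with a median of −0.90. *Kit*, the SCF receptor used to enrich the cells, went from 50.5, 149 and 60.9 TPM to 22.8, 54.9 and 25.1 TPM (−1.26 ± 0.10), and *Flt3*, which carries the duplication, from 9.86, 46.0 and 25.9 TPM to 3.60, 13.5 and 7.02 TPM (−1.56 ± 0.14). Each fell in every mouse, but control levels differed so much between mice that the groups overlapped, and neither was called without the mouse term. *Csf1r* (18.5, 29.0 and 14.4 TPM to 2.35, 4.21 and 2.19 TPM) and *Csf3r* (81.0, 117 and 71.0 TPM to 15.2, 15.4 and 19.4 TPM), receptors of macrophage and granulocyte growth factors, fell further. *Il3ra* (−0.18 to 0.59, 95% interval of the log2 change), the specific chain of the receptor for IL3 in the medium, did not pass the test. Of 25 stem cell and leukemia surface markers 20 fell and none rose at an adjusted p under 0.05 by limma (22 and 0 unadjusted), 18 of them over 2-fold, with a median of −1.30. *Clec12a* went from 286, 111 and 191 TPM to 28.6, 9.93 and 26.5 TPM, *Cd93* from 74.8, 89.2 and 57.4 TPM to 16.0, 8.53 and 14.3 TPM, and *Cd34* from 110.3, 447 and 138 TPM to 49.7, 62.5 and 64.0 TPM, the last no longer called without mouse 1. *Cd47*, a signal against phagocytosis, went from 391, 463 and 335 TPM to 209, 169 and 178 TPM (−1.08 ± 0.15).

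Downstream of the receptors, few genes of any list were called. Of 11 JAK and STAT genes 2 rose and 2 fell at an adjusted p under 0.05, close to the shares over all genes (21.4% and 18%), and none was called. Of 14 cytokine feedback genes only the kinase *Pim2* was called, higher by 1.31 ± 0.21 and no longer called without mouse 1. *Socs2* (−0.66 to 0.66) and *Cish* (−1.13 to 0.44, 95% intervals of the log2 change), which STAT5 induces, did not pass the test. In the lists that follow, 1 or 2 genes were called in each direction, where 4.23% of all genes were called higher and 6.97% lower. Among 16 RAS-MAPK feedback genes the phosphatase *Dusp10* (1.42) and *Ier3* (1.31) were called higher and *Dusp5* lower (−1.14), *Dusp5* not without mouse 1 or without mouse 2. Of 20 immediate early factors *Fosl1* (−2.21) and *Nr4a3* (−2.14) were called lower and *Ier5* (1.32) and *Jund* (1.10) higher, *Jund* not without mouse 1 or without mouse 2 and *Nr4a3* not without mouse 2. Of 16 NF-kB genes *Nfkbiz* went from 10.9, 16.8 and 13.3 TPM to 28.2, 86.1 and 31.8 TPM and *Nfkb2* from 19.4, 52.9 and 33.0 TPM to 38.5, 139 and 53.5 TPM, the rise being largest in mouse 2 in both, and neither was called without mouse 1, nor *Nfkb2* without mouse 2 or after median rescaling. *Tnip3* was called lower (−1.30).

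Every granule gene tested had a negative log2 change. All 13 primary granule genes fell at an adjusted p under 0.05 (18% of all genes), 12 of them over 2-fold (6.97%), with a median of −1.57 (−1.32, −2.10 and −1.43 in mice 1, 2 and 3). *Mpo*, or myeloperoxidase, held 3673, 1163 and 2646 TPM in DMSO and 1582, 277 and 1129.9 TPM after CCS1477, *Elane*, or neutrophil elastase, 2479.7, 454 and 1519.9 TPM and 1106, 202 and 707 TPM, and *Ctsg*, or cathepsin G, 1670.3, 849 and 1417 TPM and 569.8, 67.6 and 516 TPM. Mouse 2 had the lowest value of the 3 mice in each of these genes under each treatment. *Ms4a3*, a marker of granulocyte and monocyte progenitors, went from 946, 251 and 925 TPM to 163, 6.87 and 229 TPM (−3.18 ± 0.64), and neither it nor *Ctsg* was called without mouse 1. Of 21 secondary and tertiary granule genes 15 fell at an adjusted p under 0.05 and 11 were called lower, with a median of −1.19. *Camp* (226, 59.2 and 176 TPM to 72.9, 6.67 and 54.7 TPM), *Retnlg* (−2.40), *Mmp8* (−1.95) and the integrin *Itgam* (−1.84) were among them. The abundant neutrophil genes *S100a8* (4682, 1369.8 and 3017 TPM to 4601, 807 and 3245 TPM; 95% interval −0.78 to 0.32) and *S100a9* (95% interval −0.71 to 0.40) did not pass the test.

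Genes that let myeloid cells signal, migrate and sense microbes were also mostly lower. Of 33 cytokine and chemokine genes 20 fell and none rose at an adjusted p under 0.05 by limma (21 and 1 unadjusted), 14 of them over 2-fold, *Thbs1* included. Over all genes 18% fell and 21.4% rose at that limit, and 6.97% were called lower. *Il1b* went from 9.01, 45.6 and 24.6 TPM to 1.32, 2.31 and 2.56 TPM and *Il12a* from 9.63, 28.9 and 8.93 TPM to 0.374, 1.11 and 0.475 TPM, control levels being highest in mouse 2 in both. *Ccl9* fell from 106, 236 and 79.5 TPM to 20.3, 5.94 and 19.8 TPM (−3.12 ± 0.69), and was not called without mouse 1. *Ccl3* stood apart, with 7.24, 18.9 and 6.12 TPM in DMSO and 2.49, 291 and 3.46 TPM after CCS1477, higher in mouse 2 and lower in mice 1 and 3. Of 26 integrins and homing receptors 16 fell and 1 rose at an adjusted p under 0.05 and 12 were called lower: beside *Ccr2*, these included *Ccr1* (41.7, 19.2 and 27.6 TPM to 3.30, 0.382 and 2.77 TPM), *Itga4* (−1.49) and the marrow-homing receptor *Cxcr4* (201, 154 and 152 TPM to 88.3, 69.0 and 78.3 TPM). Of 29 Toll-like, Fc and lectin receptors 18 fell and 1 rose, 11 being called lower, with *Clec4e* (21.6, 26.5 and 19.8 TPM to 0.849, 2.63 and 1.18 TPM) and *Fcgr3* (167, 90.3 and 95.3 TPM to 31.9, 6.54 and 24.3 TPM, not called without mouse 1) among the largest.

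Part of the antigen presentation genes fell, and their median change was lowest in mouse 2. Of 14 MHC class II presentation genes 7 fell, all over 2-fold, and none rose at an adjusted p under 0.05 by limma (10 and 0 unadjusted), with medians of −0.53, −1.96 and −0.76 in mice 1, 2 and 3, and 3 genes were called lower without mouse 2 and 4 with a pseudocount of 0.1. *Ciita*, the master activator of these genes, went from 4.44, 24.9 and 11.2 TPM to 0.679, 1.52 and 1.21 TPM (−2.51 ± 0.34). *H2-Ab1*, a class II chain gene, had 107, 403 and 298 TPM in DMSO and 72.3, 59.9 and 174 TPM after CCS1477 and did not pass the test (adjusted p = 0.0895, limma), its values being far lower after treatment in mouse 2 and less so in mice 1 and 3. Dendritic cell markers were highest in the DMSO library of mouse 2, and their part in this pattern was not tested. *H2-Ab1* and *Cd74* are on both the dendritic cell and the MHC class II list, so these are not separate results. Of 36 interferon-stimulated genes 2 rose and 6 fell at an adjusted p under 0.05, where 21.4% and 18% of all genes did, with a median of −0.13. *Irf7* was called higher (6.16, 10.9 and 3.85 TPM to 15.1, 24.9 and 10.5 TPM), the GTPases *Ifi47* (−1.82) and *Gbp3* (−1.62) lower, and *Isg15* (−0.26 to 0.31, 95% interval of the log2 change) did not pass the test.

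Lower genes lay next to each other in the genome more often than all genes did. Of 962 protein-coding genes called lower 276 (28.7%) had a directly neighbouring tested gene that was also called lower, where 14.2% of all 12787 protein-coding genes tested had such a neighbour. For genes called higher it was 72 of 555 (13%) against 8.5%. The longest unbroken runs of lower genes, on GRCm38 (mm10), were 6 genes on chromosome 1 (40074079 to 40551705), the interleukin-1 and interleukin-18 receptor genes *Il1r2*, *Il1r1*, *Il1rl2*, *Il1rl1*, *Il18r1* and *Il18rap*, with log2 changes of −1.91 to −1.24, and 6 genes on chromosome 7 (3711409 to 4063204) from *Pirb* to *Lair1*. Runs of 5 were the *Ly6* genes on chromosome 15 and, on chromosome 6, the *Clec4* lectins (123106428 to 123289870; −3.26 to −1.67) and the run from *Clec2g* through *Cd69* to *Clec12a* (128934381 to 129365303; −3.82 to −1.42). *Prtn3* and *Elane* lay side by side on chromosome 10. Members of the *Pira*, *Ly6* and *Clec4* families are alike in sequence, so reads may be divided between neighbours.

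Promoter composition differed between genes called lower and higher. A promoter was matched for 10202 of 12476 protein-coding genes tested on the chromosomes covered (81.8%), among them 773 of 939 called lower and 445 of 546 called higher. A CpG observed to expected ratio over 0.6, typical of CpG islands, was found in 42.8% of promoters of lower genes, 78.4% of those of higher genes and 69.8% of all, and the median number of CpG in 300 bases was 10, 24 and 20. The lower genes were themselves mixed: 39 of 42 matched promoters (92.9%) of nucleolar genes called lower passed that ratio, against 1 of 10 (10%) for primary granule genes called lower. The E-box CACGTG was present in 12.5% of promoters of lower genes, 7.19% of higher genes and 9.88% of all, and in 12 of the 42 nucleolar promoters (28.6%), *Tsr1* and *Wdr43* among them. Among MYC targets it was in 11 of 42 promoters (26.2%), but in 3 of the 23 (13%) of those called lower, close to the share over all lower genes, and in none of the 10 primary granule promoters. GAGGAAGT, searched on both strands and able to overlap an E-box by at most 1 base, was present in 7.76%, 1.35% and 3.35%, in 3 of the 10 primary granule promoters (30%) and in 2 of the 42 nucleolar promoters (4.76%). These are matches of letters and say nothing of binding. By span in the annotation, lower genes had a median of 21.2 kb, higher genes 29.3 kb and all protein-coding genes 23.1 kb.

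The response of *T/F* cells, measured at 2 µM instead of 4 µM, was set beside that of *D/F* cells with a test of the difference itself. Of 15583 genes in the fit of all 12 libraries none differed at an adjusted p under 0.05 (limma, lowest adjusted p = 0.163), while 2293 (14.7%) did at an unadjusted p under 0.05. With 3 mice per genotype, the lack of calls does not show that the responses were equal. Dose and genotype cannot be told apart in this comparison. In *T/F* cells 1197 of 15256 genes (7.85%) were called. Of 15174 genes tested in both genotypes, the *D/F* fit called 1068 lower and the *T/F* fit 781. In both sets were 641 genes (60% of the former and 82.1% of the latter). For higher genes the sets held 637 and 406, with 283 in both (44.4% and 69.7%). None was called in opposite directions. Differences between the fitted responses exceeded 1 on the log2 scale in 279 genes and 2 in 28, none of which passed the test. For the genes named above, *Myc* changed by −4.21 in *D/F* and −3.44 in *T/F*, *Hexim1* by 2.29 and 1.61, *Gnl3* by −2.68 and −2.54, and *Bcl2* by −2.41 and −2.24. Values were further apart for *Runx1* (−2.23 and −0.88, adjusted p of the difference 0.213 by limma), *Zeb2* (−1.44 and −0.33, 0.172) and *Spi1* (−1.38 and −0.42, 0.17).

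**Figure D5:**
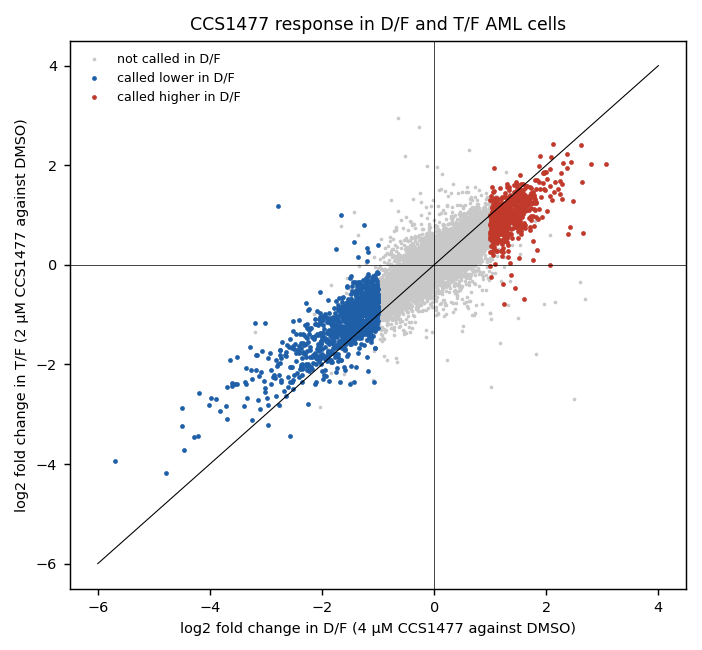
Each point is a gene tested in both genotypes; the x axis is the log2 fold change in D/F cells at 4 µM CCS1477 and the y axis that in T/F cells at 2 µM, both on the log2(TPM + 1) scale, with genes called in D/F colored. Of 1068 genes called lower in D/F 1058 have the same sign in T/F, and of 637 called higher 630; colored genes were chosen by their D/F change.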

How the data were processed

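The 6 *D/F* libraries (3 DMSO, 3 CCS1477) and 6 *T/F* libraries of c-Kit-enriched leukemic splenocytes were analysed. Values are TPM per gene as deposited, made by the authors with kallisto on mm10 by the submitters' processing notes and processed further in AltAnalyze by the paper's methods; replicates were not pooled. No gene in the table stays under 2 TPM throughout, so low genes had been removed, and libraries sum to between 914204 and 931697 TPM. Read numbers cannot be recovered from TPM: depth is unknown, and precision is the spread between 3 mice. The scale is relative and blind to a shift in the RNA content of cells.

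The genes kept were tested with limma 3.58.1 in R 4.3.3 (eBayes without a trend, two-sided) on log2(TPM + 1) with treatment and mouse as terms, and p-values were adjusted by Benjamini-Hochberg over 15501 genes. This scale understates fold changes of low genes. Calls needed both an adjusted p under 0.05 and more than 2-fold. Exact tests of single genes cannot pass 0.05 here (smallest p 0.1 for 3 against 3 libraries, 0.25 for sign flips over 3 mice). Responses of the genotypes were compared over 12 libraries, as treatment within genotype with the mouse as a block. By the sample records, libraries that share a replicate number come from 1 mouse, and their deviations from group means were correlated at 0.528, 0.657 and 0.534 (at most 0.133 between mice).

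Symbols from GENCODE vM21 and its tables matched 15126 of the genes. Promoters are RefSeq's on GRCm38.p6. Genes named are the 15 largest rises and falls among called genes with at least 5 TPM, up to 4 called members of each list, a set of drug target, allele and survival genes, and members needed to account for a list; some of these genes are not reported here. Members and lists were chosen with earlier results of these data known, so lists have counts and medians only. The fits were tested on simulated data. Alternatives were another pseudocount, other filters, scalings and fold limits, eBayes with a trend, a fit of all 12 libraries, no mouse term, and leaving out each mouse. The other assays of the study were not analysed here.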

Additional observations from a re-analysis of the deposited data

How the results depend on the processing

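Without the replicate block, that is without pairing by mouse, 1128 genes were called, 414 higher and 714 lower. Leaving out 1 mouse gave 0 to 1710 calls, 0 to 762 higher and 0 to 948 lower: 1471 without mouse 1, 1710 without mouse 2 and 0 without mouse 3, where 4 libraries remained and 1911 genes changed over 2-fold at an unadjusted p under 0.05 (limma). A limit of 1.5-fold called 4056 genes (2022 higher, 2034 lower) and no limit on fold 6098 (3312 higher, 2786 lower). A pseudocount of 0.1 (2163 calls), filters at 5 TPM (1507), at 1 TPM over all 6 libraries (1717) or none (1727), rescaling to the median gene (1766), quantile normalization (1719), a trend (1794) and the fit of all 12 libraries (1838) stayed within 1.5 times of 1737. The share of calls that were higher was 37.8% in the reported fit, 32.8% after median rescaling and 44.6% without mouse 2. Of the 143 genes and markers followed none changed direction in these alternatives; 35 lost their call without the block, 18 without mouse 1, 13 without mouse 2, 138 without mouse 3, 3 with the lower pseudocount, 2 after quantile normalization and 1 after median rescaling. Without the block, the calls of granule, cytokine, receptor, surface marker and MHC class II genes fell by over 1.5 times, for example from 12 to 6 primary granule genes and from 18 to 11 surface markers. The difference between *D/F* and *T/F* responses gave 0 calls under each alternative run (lowest adjusted p 0.0574 to 0.768, limma), the fit without the block included. With 3 mice, depth unknown and TPM relative, small changes of genes at low levels are not resolved.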
